A study of Mus musculus with 26 samples.

Results

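The 7 genes followed here encode the core of the inflammasomes: the sensors Nlrp3, Aim2 and Nlrc4, the adaptor Pycard (ASC), the caspases Casp1 and Casp4, and the pore protein Gsdmd (gasdermin D). They were found by symbol in both gene count tables, which hold 39017 gene identifiers, and all 7 were present in each table and passed edgeR's filter on low counts in each. The RNA came from the epididymal fat of male wild type C57BL/6J mice, aged 9 to 10 weeks when the diets began. Lean mice (LFD) ate a 10% fat diet for 12 weeks, obese mice (HFD) a 60% fat diet for 12 weeks, and formerly obese mice (SW) the 60% fat diet for 9 weeks followed by the 10% fat diet for 3 weeks. Fat pads were digested with collagenase and centrifuged, which separated floating adipocytes from the pelleted stromal vascular cells (SVC), the mixed immune, vascular and progenitor cells of the tissue. No sorting of the floating adipocytes is described, so cells that float with them stay in that fraction. The libraries analysed were 9 of adipocytes (3 LFD, 3 HFD and 3 SW) and 6 of SVC (1 LFD, 2 HFD and 3 SW), and each is called below by the number in its column name. The labels do not tie these numbers to mice, so p-values measure the spread between libraries.

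An inflammasome is a protein complex that assembles in the cytosol when a sensor detects damage or microbial products. NLRP3 responds to potassium efflux and crystals, AIM2 to double-stranded DNA, and NLRC4 to bacterial proteins passed on by NAIP proteins. The sensor recruits ASC, which recruits and activates caspase-1, and caspase-1 matures IL-1β and IL-18 and cleaves gasdermin D, whose fragment forms pores in the plasma membrane. Caspase-4 (also called caspase-11 in mice) binds bacterial lipopolysaccharide and cleaves gasdermin D by itself. In fat these genes are known mostly from macrophages, which gather around adipocytes in obesity. RNA levels say nothing of whether the complex had assembled.

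Library totals ran from 5781902 to 23725647 estimated counts, and the smallest were of LFD mice. A count of 0 would allow up to 3 counts, or 0.124 to 0.524 CPM (counts scaled to library size) depending on the library, and none of the 7 genes was at 0 in any library. The adipocyte markers summed to between 4123 and 14768 CPM in the adipocyte libraries and to between 207 and 636 CPM in the SVC libraries. The HFD libraries of SVC stood apart from each other: transcripts of the mitochondrial genome made up 6.34% of the counts in library 212 and 33.5% in library 411. In adipocytes, 9 genes had counts in every HFD library but none in the LFD or SW libraries, and 8 genes showed the reverse, among genes that averaged at least 10 counts where they were present. None of the 7 genes was among them, and this division of the libraries and the diet cannot be told apart.

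Casp1 (ENSMUSG00000025888, chr9:5298517-5307265, plus strand) and Casp4 (ENSMUSG00000033538, chr9:5308828-5336783, plus strand) are neighbours in GRCm38. Nlrp3 (ENSMUSG00000032691) lies at chr11:59541568-59566956 on the plus strand, Aim2 (ENSMUSG00000037860) at chr1:173350879-173466040 on the plus strand, and Nlrc4 (ENSMUSG00000039193) at chr17:74425438-74459142 on the minus strand. Pycard (ENSMUSG00000030793) lies at chr7:127989708-127993867 on the minus strand, and Gsdmd (ENSMUSG00000022575) at chr15:75862327-75867408 on the plus strand. In the GENCODE annotation Aim2 overlaps Cadm3 and Pycard overlaps Gm45205 on the opposite strand, while Nlrc4 overlaps CT033749.1 on its own strand. Whether the reads were counted by strand is not given in the sources used here, so reads of these overlapping genes may not be told apart.

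The 250 bases before the transcription start in RefSeq (GRCm38.p6) are shown for the neighbouring caspases, which were called in the same direction wherever both were called, and for 2 sensors. Capitals mark matches on either strand to a κB motif, a short form of the site of the inflammatory factor NF-κB written as GGG, any 5 bases and CC, and to GAGGAA, the core of the site of the myeloid factor PU.1.
Casp1, chr9:5298267-5298516: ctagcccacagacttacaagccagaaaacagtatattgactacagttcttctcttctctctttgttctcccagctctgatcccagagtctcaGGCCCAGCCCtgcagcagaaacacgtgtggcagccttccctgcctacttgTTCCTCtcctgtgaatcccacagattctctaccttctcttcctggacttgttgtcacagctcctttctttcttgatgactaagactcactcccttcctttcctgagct
Casp4, chr9:5308599-5308848: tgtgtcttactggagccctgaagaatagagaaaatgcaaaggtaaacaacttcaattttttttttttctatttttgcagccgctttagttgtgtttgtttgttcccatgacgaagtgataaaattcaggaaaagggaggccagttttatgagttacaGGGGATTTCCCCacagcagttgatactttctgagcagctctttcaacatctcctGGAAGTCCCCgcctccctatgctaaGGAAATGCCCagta
Nlrp3, chr11:59542436-59542685: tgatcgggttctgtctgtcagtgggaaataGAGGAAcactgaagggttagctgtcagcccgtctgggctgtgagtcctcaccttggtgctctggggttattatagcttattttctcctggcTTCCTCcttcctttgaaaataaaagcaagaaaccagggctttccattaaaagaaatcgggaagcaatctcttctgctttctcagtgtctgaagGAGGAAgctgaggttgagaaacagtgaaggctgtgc
Aim2, chr1:173420354-173420603: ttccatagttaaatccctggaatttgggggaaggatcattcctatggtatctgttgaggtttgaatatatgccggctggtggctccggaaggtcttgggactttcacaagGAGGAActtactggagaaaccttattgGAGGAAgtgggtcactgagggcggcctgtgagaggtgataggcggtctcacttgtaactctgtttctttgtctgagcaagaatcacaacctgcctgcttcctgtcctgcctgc
Entries were found for 6 of the 7 genes (not Gsdmd). GAGGAA occurred in 4 of these 6 windows (Nlrp3, Aim2, Pycard and Casp1) and in 23.1% of all 27025 promoter windows of the same length, and the κB motif in 2 of 6 (Casp1 and Casp4) and in 45.4% of all. In Casp4 the matches to the κB motif overlap one another at 93 to 82 bases before the start, with 2 more on the minus strand at 39 and 14 bases before it. The interferon motif (GAAA, any 2 bases and GAAA, 3.04% of all windows), the STAT motif TTCNNNGAA (7.18%) and TATAAA (13.0%) were in none of the 6 windows.

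All 7 genes were higher in HFD than in LFD adipocytes. The log2 fold changes ran from 0.62 to 3.63 with a median of 2.24, where the median over all 14461 genes tested was -0.025. All 7 were called higher by edgeR's quasi-likelihood test (Benjamini-Hochberg adjusted p under 0.05), beside 26.5% of all genes tested. In all 7 every HFD library lay above every LFD library, which held for 32.1% of all genes.

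The sensor Nlrc4 changed the most. It stood at 1.43, 0.361 and 0.264 CPM in the LFD libraries and at 8.49, 5.93 and 7.69 CPM in the HFD libraries. The LFD values rest on 9, 7 and 2 counts, and the log2 fold change was 3.63 ± 0.48 (SE, adjusted p = 0.00022 by edgeR). The DNA sensor Aim2 stood at 3.33, 2.06 and 1.32 CPM in LFD and at 11.9, 9.85 and 11.7 CPM in HFD adipocytes, a log2 fold change of 2.35 ± 0.26 (SE, adjusted p = 8.53e-05 by edgeR). Nlrp3 was the least counted sensor in HFD adipocytes, at 3.68, 3.13 and 2.77 CPM against 0.476, 0.928 and 0.396 CPM in LFD. Its log2 fold change was 2.24 ± 0.38 (SE, adjusted p = 0.00095 by edgeR), with 3, 18 and 3 counts in the LFD libraries. The fitted rises of the 3 sensors ran from 4.71-fold (Nlrp3) to 12.4-fold (Nlrc4), from low counts in lean mice.

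The adaptor Pycard stood at 10.9, 12.2 and 7.78 CPM in LFD and at 45.4, 52.4 and 55.1 CPM in HFD adipocytes. This is a log2 fold change of 2.29 ± 0.32 (SE, adjusted p = 0.000325 by edgeR). Casp1, the caspase that ASC recruits, went from 12.4, 15.0 and 12.1 CPM to 57.6, 53.8 and 59.1 CPM, a log2 fold change of 2.09 ± 0.17 (SE, adjusted p = 1.48e-05 by edgeR). The HFD libraries differed little among themselves for both genes, while the groups were far apart. Casp4, the lipopolysaccharide-binding caspase, went from 9.20, 12.6 and 8.31 CPM to 21.2, 19.1 and 18.7 CPM, a log2 fold change of 0.94 ± 0.19 (SE, adjusted p = 0.00279 by edgeR). The pore protein Gsdmd changed the least. It went from 20.3, 28.2 and 18.9 CPM to 36.4, 33.9 and 34.2 CPM, and its log2 fold change of 0.62 ± 0.20 (SE) had an adjusted p of 0.0283 by edgeR. Without HFD library 401 or 403, or without LFD library 404 or 406, Gsdmd no longer passed, with adjusted p between 0.0601 and 0.101 and log2 fold changes between 0.51 and 0.64.

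**Figure D1:**
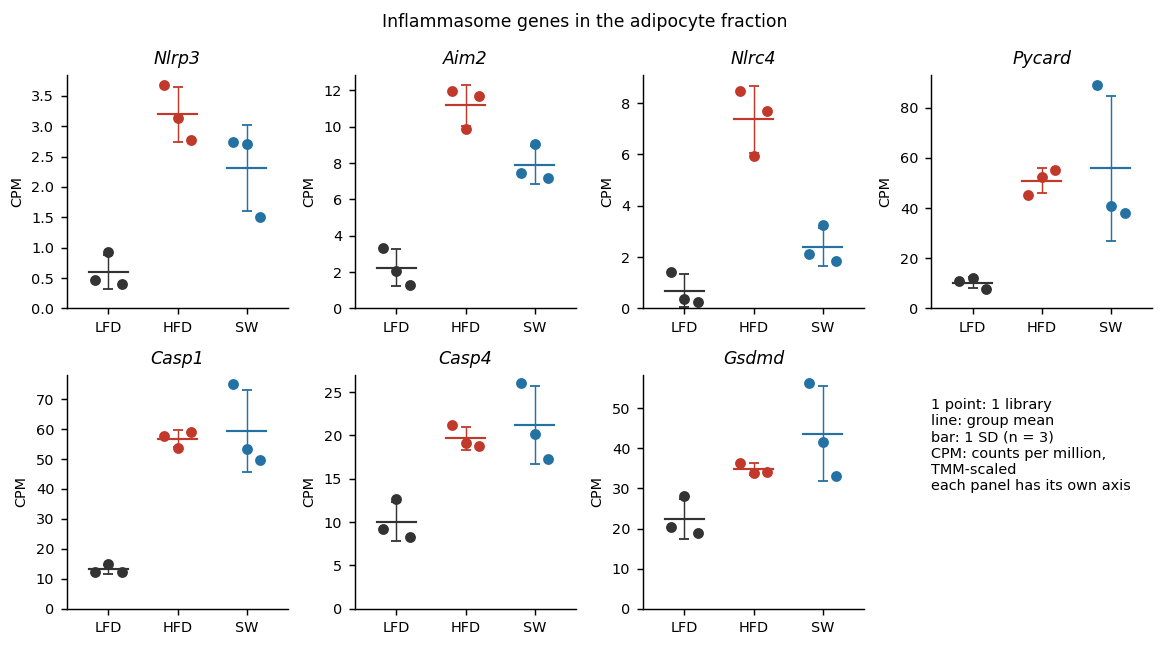
CPM of the 7 genes in each adipocyte library (points) by diet, with the group mean (line) and 1 SD (bar, n = 3), each gene on its own axis from 0. Every HFD and every SW point lies above every LFD point, and for Pycard, Casp1, Casp4 and Gsdmd the highest point is 1 SW library.

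After the diet switch the 7 genes remained above the lean level in adipocytes. All 7 were called higher in SW than in LFD (10.9% of all genes tested), with log2 fold changes from 0.94 to 2.41 and a median of 1.86. Every SW library lay above every LFD library for all 7 (19.1% of all genes). Pycard had a log2 fold change of 2.41 ± 0.33 (SE, adjusted p = 0.00073 by edgeR) between SW and LFD. Casp1 had 2.15 ± 0.17 (SE, adjusted p = 5.42e-05) and Aim2 1.86 ± 0.27 (SE, adjusted p = 0.00111). For Nlrp3 the value was 1.77 ± 0.39 (SE, adjusted p = 0.0114), for Casp4 1.04 ± 0.19 (SE, adjusted p = 0.00494) and for Gsdmd 0.94 ± 0.21 (SE, adjusted p = 0.0112). Nlrc4, at 2.04 ± 0.51 (SE, adjusted p = 0.0204), no longer passed without LFD library 405 or 406 or without SW library 408 (adjusted p from 0.0703 to 0.111).

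Between SW and HFD adipocytes only Nlrc4 of the 7 genes passed the test. It fell to 2.10, 3.24 and 1.86 CPM in the SW libraries, a log2 fold change of -1.59 ± 0.38 (SE, adjusted p = 0.0148 by edgeR), in a comparison that called 15.9% of all genes lower. Without HFD library 403 its adjusted p was 0.0573, with a log2 fold change of -1.58. The other sensors did not pass: Aim2 stood at 7.46, 9.07 and 7.15 CPM in SW, a log2 difference of -0.49 with a 95% interval from -0.94 to -0.046 (adjusted p = 0.121). The intervals of log2 differences use a normal approximation and are narrower than the test allows. That of Aim2 leaves out 0, although its unadjusted p was 0.0555 by edgeR's test. Nlrp3 stood at 2.73, 2.70 and 1.50 CPM, a log2 difference of -0.46 with an interval from -1.10 to 0.17 (adjusted p = 0.288). For all 3 sensors, however, every HFD library lay above every SW library (25.2% of all genes), which held for none of the other 4 genes.

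The adaptor, caspases and pore gene had log2 differences between SW and HFD of 0.12 (Pycard, 95% interval from -0.45 to 0.70), 0.058 (Casp1, -0.25 to 0.37), 0.10 (Casp4, -0.26 to 0.46) and 0.32 (Gsdmd, -0.068 to 0.71). SW library 407 held the highest level of all 4 among the 9 adipocyte libraries. In it Pycard reached 89.1 CPM where the other SW libraries had 40.7 and 37.8 CPM. Casp1 was at 75.0 CPM in it against 53.3 and 49.6 CPM, and Casp4 at 26.1 against 20.2 and 17.3 CPM. Gsdmd was at 56.3 CPM in it against 41.5 and 33.1 CPM. Without this library the log2 differences of Pycard, Casp1 and Casp4 between SW and HFD were -0.38, -0.14 and -0.066, so their sign rests on it.

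The share of the HFD against LFD change that was gone in SW adipocytes was 43.9% for Nlrc4, 21.0% for Aim2 and 20.8% for Nlrp3. It was -2.8% for Casp1, -5.5% for Pycard, -10.9% for Casp4 and -52.3% for Gsdmd, where a negative value means that the SW mean lay further from LFD than the HFD mean did. Across the 3836 genes called higher in HFD than in LFD the median share was 53.8%, with quartiles at 25.4% and 78.9%. Both changes share the HFD libraries, so these shares are given as a description with no test. In the order of the diet means, Nlrp3, Aim2 and Nlrc4 ran LFD, SW, HFD and the other 4 genes LFD, HFD, SW. Without SW library 407 the SW against HFD differences of Pycard, Casp1 and Casp4 were negative. Their place in this order and the sign of their shares thus rest on that library. The neighbours HFD and SW differed beyond the spread between libraries, by the test, for Nlrc4 only.

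**Figure D2:**
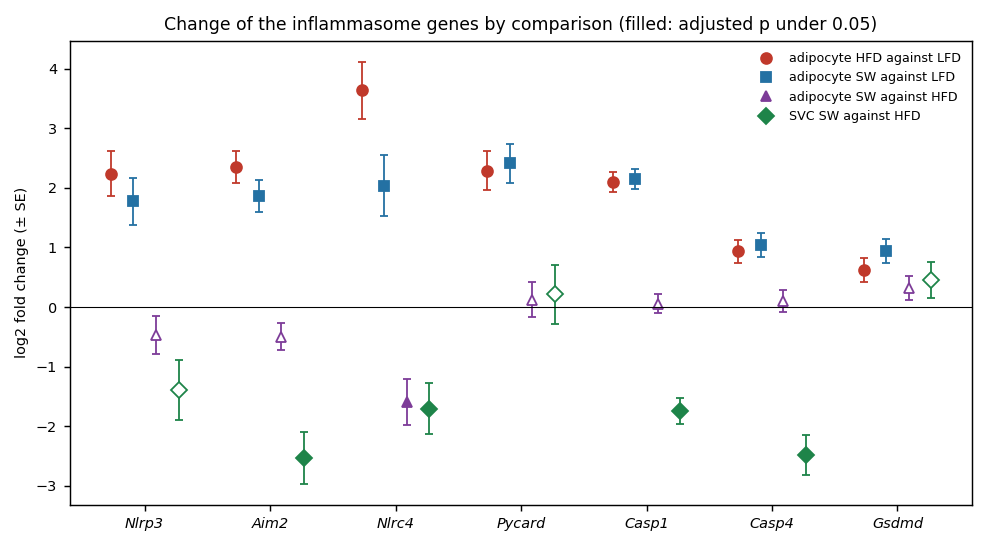
Log2 fold changes with their SE for each gene in 4 comparisons, filled where the adjusted p of edgeR's quasi-likelihood test was under 0.05. Both adipocyte comparisons with LFD lie above 0 for all 7 genes, adipocyte SW against HFD is filled for Nlrc4 only, and SVC SW against HFD is filled, below 0, for Aim2, Nlrc4, Casp1 and Casp4.

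Macrophage markers moved with the 7 genes in the adipocyte fraction. The list of 16 markers, among them Adgre1 (F4/80), Cd68 and Csf1r, summed to between 823 and 1423 CPM in LFD, between 11218 and 13520 CPM in HFD and between 8140 and 11685 CPM in SW libraries, and none of its markers was at 0 throughout a diet group. All 16 were called higher in HFD than in LFD, beside 26.5% of all genes, with a median log2 fold change of 3.05. In SW against LFD 14 of the 16 were called higher, beside 10.9% of all genes. In SW against HFD 6 were called lower and none higher, beside 15.9% and 15.6% of all genes. Adipocyte markers summed to between 11738 and 14768 CPM in LFD and to between 4123 and 8486 CPM in HFD libraries. Neutrophil markers, from cells that also express these genes, summed to at most 34.0 CPM in each of the 9 adipocyte libraries, with Ly6g at 0 in all of them. More cells of a type and more RNA per cell cannot be told apart in these samples, and the part of macrophage RNA in the changes of the 7 genes was not tested.

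Set against the summed macrophage markers, which rose by 3.44 on the log2 scale, 6 of the 7 genes were lower in HFD than in LFD adipocytes with no overlap between the groups. The same held for 95.9% of all genes tested, and the opposite for 0.768%, so the count says nothing particular about these genes, and the values are given as a description. Per 1000 CPM of the markers, Gsdmd stood at 14.3, 21.0 and 22.9 CPM in LFD and at 2.72, 3.02 and 2.53 CPM in HFD, a log2 difference of -2.79. Casp4 stood at 6.46, 9.41 and 10.1 in LFD and at 1.58, 1.70 and 1.39 in HFD on that scale, a log2 difference of -2.45. Casp1 differed by -1.33, Pycard by -1.12, Aim2 by -1.03 and Nlrp3 by -0.94 on the log2 scale. Nlrc4 was the exception: its libraries overlapped, at 1.00, 0.269 and 0.320 in LFD and 0.635, 0.528 and 0.569 in HFD per 1000 marker CPM, a log2 difference of 0.38.

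From HFD to SW the level per macrophage marker was higher without overlap for Gsdmd (log2 difference 0.73), Casp4 (0.53) and Casp1 (0.48), and lower without overlap for Nlrc4 (-1.20). Pycard (0.46), Nlrp3 (-0.069) and Aim2 (-0.064) overlapped. Over all genes tested 37.8% were higher and 5.98% lower without overlap on this scale. Casp1 stood at 4.31, 4.80 and 4.37 in HFD and at 6.41, 6.22 and 6.09 in SW per 1000 marker CPM, a narrow range within each diet. With 3 libraries against 3, the exact two-sided permutation test cannot go below p = 0.1. The 16 differences without overlap, of the 21 tested, reached that value, which is 0.131 after Benjamini-Hochberg adjustment over the 21, so none passed. Of the 16, 6 were lower in HFD and 6 lower in SW than in LFD, where 95.9% and 95.7% of all genes separated in the same way. In the opposite direction, 0.429% of all genes were higher in SW than in LFD.

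**Figure D3:**
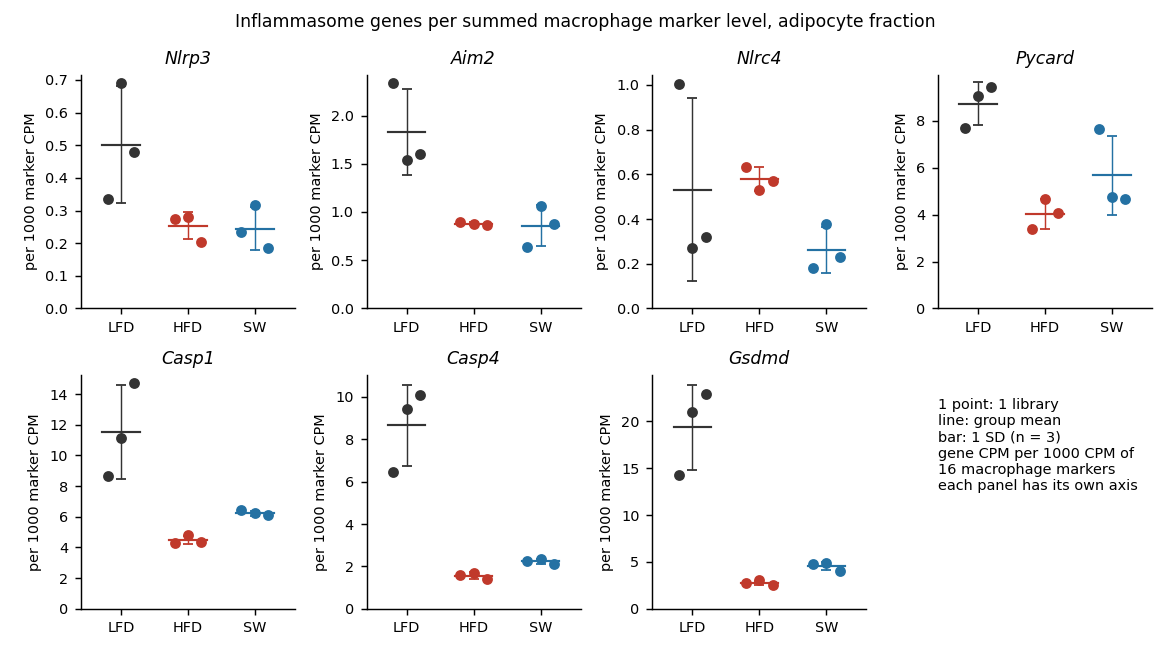
Level of each gene per 1000 CPM of the 16 summed macrophage markers in each adipocyte library (points), with the group mean (line) and 1 SD (bar, n = 3), each gene on its own axis from 0. LFD lies above HFD without overlap for all but Nlrc4, as for 95.9% of all genes tested, and for Casp1, Casp4 and Gsdmd the SW libraries lie between the HFD and LFD libraries.

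In SVC the sensors Aim2 and Nlrc4 and both caspases were called lower in SW than in HFD mice. These calls were lost with a correction for GC content, and without either SW library 412 or SW library 413, as given below. Casp1 stood at 48.9 and 42.1 CPM in HFD and at 13.3, 13.0 and 14.6 CPM in SW libraries, a log2 fold change of -1.74 ± 0.22 (SE, adjusted p = 0.0362 by edgeR). Casp4 stood at 22.4 and 14.5 CPM in HFD and at 3.27, 3.51 and 3.09 CPM in SW, a log2 fold change of -2.48 ± 0.33 (SE, adjusted p = 0.0362). Aim2 stood at 18.4 and 8.62 CPM in HFD and at 2.31, 2.19 and 2.47 CPM in SW, a log2 fold change of -2.53 ± 0.43 (SE, adjusted p = 0.0362). Nlrc4 stood at 7.42 and 5.24 CPM in HFD and at 2.15, 2.19 and 1.44 CPM in SW, a log2 fold change of -1.71 ± 0.43 (SE, adjusted p = 0.0454). These are 4 of the 7 genes, beside 11.7% of all genes called lower.

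The other genes did not pass in SVC. Nlrp3 stood at 20.8 and 6.69 CPM in HFD and at 4.59, 5.37 and 5.77 CPM in SW, a log2 difference of -1.39 with a 95% interval from -2.38 to -0.41 (adjusted p = 0.0893 by edgeR). Pycard stood at 47.0 and 134.5 CPM in HFD and at 69.0, 133.3 and 114.2 CPM in SW, with a log2 difference of 0.22 and an interval from -0.75 to 1.18. Gsdmd stood at 57.3 and 98.2 CPM in HFD and at 85.2, 117.0 and 116.7 CPM in SW, with a log2 difference of 0.45 and an interval from -0.14 to 1.04. The macrophage markers summed to 14427 and 23229 CPM in HFD and to 19610, 25170 and 25119 CPM in SW. Of the 16 markers 1 was called lower and none higher, beside 11.7% and 5.71% of all genes. Their log2 differences ran from -1.55 (Mrc1) to 1.09 (Csf1r). Their part in the fall of the 4 genes was not tested.

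These SVC calls moved with the GC content of the transcripts and with single libraries. Over all genes the median log2 fold change between SW and HFD SVC was -1.44 in genes with a GC content under 45.7% and 0.68 in genes with one over 55.0%, the outer quartiles. The transcripts of the 4 genes that fell had GC contents of 41.1% (Casp1), 42.0% (Casp4), 42.8% (Aim2) and 45.8% (Nlrc4), against 45.6% for Pycard, 51.0% for Nlrp3 and 54.4% for Gsdmd. Over the whole transcript Pycard, which did not fall, thus lay just below Nlrc4. In the coding part alone the GC contents were 41.9% (Casp1), 42.4% (Aim2), 44.3% (Casp4) and 47.6% (Nlrc4). Nlrp3 (52.1%), Pycard (54.4%) and Gsdmd (54.5%) all lay above these. The correction below used the whole transcripts. The GC content of the coding part entered no fit, and its part in the falls was not tested. With a correction for GC content the log2 fold changes were -0.23 (Casp1), -1.06 (Casp4), -1.15 (Aim2) and -0.88 (Nlrc4), and 0 of the 7 genes and 0 of all genes passed edgeR's test, with 4424 of 16319 genes at an unadjusted p under 0.05. Without SW library 413 or without SW library 412, 0 of the 7 also passed, at adjusted p from 0.0541 to 0.0855 and from 0.155 to 0.176 for the 4 genes. No gene of the table passed in either case, with 5435 and 4217 genes at an unadjusted p under 0.05. DESeq2, run on all libraries without a correction, called 5222 genes where edgeR called 2849. Without HFD library 212 or SW library 414 Casp1 and Casp4 passed, and without HFD library 411 6 of 7 did, Nlrp3 (-1.98, adjusted p = 0.0125) and Gsdmd (0.89, adjusted p = 0.0462) among them. Leaving out either HFD library leaves 1, which is then assumed to vary like the SW libraries.

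The labels list 3 LFD and 3 HFD samples of SVC, but 3 columns of the SVC table have names that give no diet of the labels (2 bare numbers and 1 named NC), and they were left out. The single LFD library that remained allows no test against lean mice. It held 3 counts of Aim2, 2 of Nlrc4, 7 of Casp4, 30 of Nlrp3, 31 of Casp1, 152 of Pycard and 459 of Gsdmd. These are 0.524 CPM for Aim2, with an exact 95% Poisson interval from 0.108 to 1.53, 1.22 CPM for Casp4 (0.491 to 2.52) and 5.41 CPM for Casp1 (3.68 to 7.68). In the HFD libraries Casp1 was 9.04 and 7.79 times the LFD level and in the SW libraries 2.41 to 2.70 times. Casp4 was 18.3 and 11.8 times the LFD level in HFD and 2.53 to 2.87 times in SW. Aim2 was 35.1 times (11.9 to 171) and 16.5 times (5.50 to 80.9) the LFD level in the HFD libraries. Gsdmd was at 80.2 CPM in the LFD library, 0.715 and 1.22 times that in HFD and 1.06 to 1.46 times in SW. The intervals cover counting error only, not differences between mice.

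**Figure D4:**
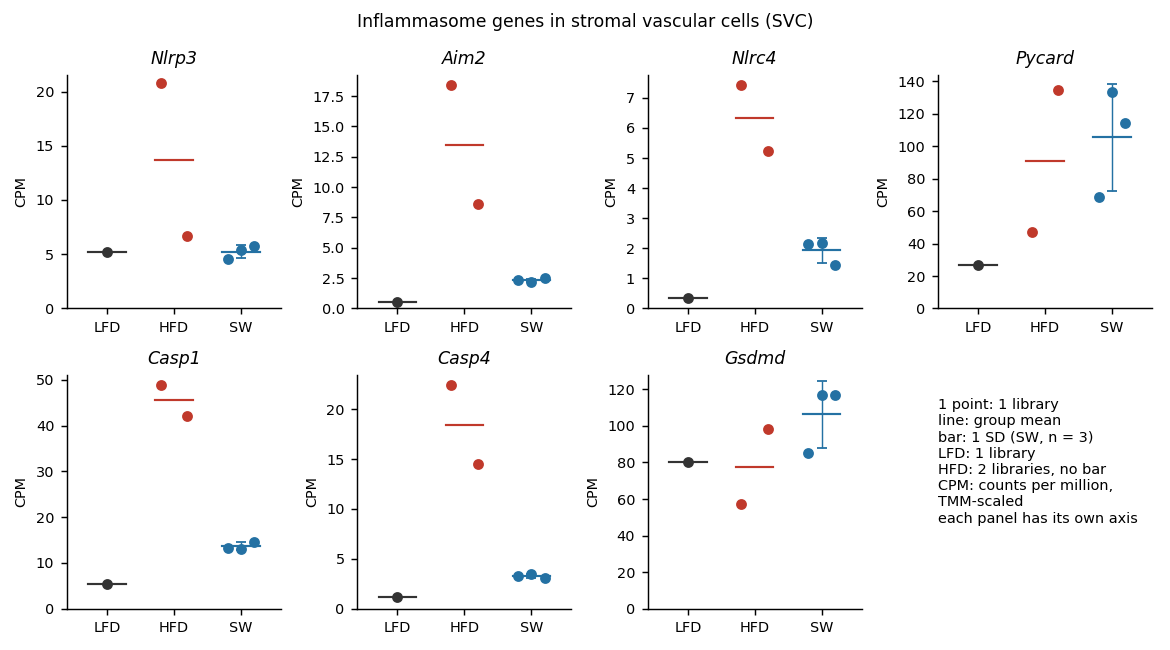
CPM of the 7 genes in each SVC library (points) by diet, with the group mean (line) and, for SW, 1 SD (bar, n = 3), each gene on its own axis from 0. Both HFD points lie above the 3 SW points for Nlrp3, Aim2, Nlrc4, Casp1 and Casp4, the HFD points of Nlrp3 and Pycard are far apart, and LFD is 1 library.

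Aim2, Casp1 and Casp4 responded to the diet switch differently in SVC and in adipocytes. In 1 model over all 15 libraries, the SW against HFD change in SVC minus that in adipocytes was -1.90 ± 0.43 (SE) on the log2 scale for Aim2 (adjusted p = 0.00677 by edgeR). It was -1.69 ± 0.24 (SE) for Casp1 (adjusted p = 0.00118) and -2.47 ± 0.31 (SE) for Casp4 (adjusted p = 0.000797). These are 3 of the 7 genes, where 27.1% of all genes were called in either direction. With the GC correction only Casp4 passed (-1.41, adjusted p = 0.0164), with Casp1 at -0.55 and Aim2 at -0.87. The difference for Nlrp3 was -0.79 with a 95% interval from -1.88 to 0.31, for Nlrc4 0.019 (-1.18 to 1.21), for Pycard 0.15 (-1.02 to 1.33) and for Gsdmd 0.21 (-0.53 to 0.94). Without HFD library 411 of SVC, Nlrp3 passed as well (-1.44, adjusted p = 0.0288).

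Levels in the fractions were compared within each diet in the same model. Each fraction has its own count table, so fraction and any difference in preparation, runs or processing cannot be told apart. Over all genes in SW mice the median log2 difference was -1.57 in the quartile of lowest GC content and 1.21 in the highest. In SW mice Gsdmd (log2 fold change 1.70 ± 0.26, SE), Nlrp3 (1.60 ± 0.39) and Pycard (1.34 ± 0.41) were higher in SVC than in adipocytes, at adjusted p of 5.99e-05, 0.00259 and 0.0103 by edgeR, beside 35.6% of all genes. Casp4 (-2.26 ± 0.22), Casp1 (-1.70 ± 0.17) and Aim2 (-1.34 ± 0.30) were lower in SVC, at adjusted p of 1.91e-06, 1.95e-06 and 0.00156, beside 32.8% of all genes. With the GC correction the differences of Casp1 (-0.085) and Aim2 (0.12) no longer passed, and Nlrc4 was higher in SVC (1.03, adjusted p = 0.0434). Without SW library 414 of SVC, Pycard had an adjusted p of 0.0514. In HFD mice Nlrp3 (2.38 ± 0.41) and Gsdmd (1.49 ± 0.28) were higher in SVC, at adjusted p of 0.00124 and 0.00205, where 29.1% of all genes were called in either direction. Pycard (1.18 ± 0.44, adjusted p = 0.0584) did not pass, but passed with DESeq2 (adjusted p = 0.0336) and without SVC library 212 (1.79, adjusted p = 0.00381). Casp1 differed by -0.0091 there, with a 95% interval from -0.36 to 0.34. The macrophage markers were called higher in SVC for 14 of 16 in SW mice, beside 35.6% of all genes. In HFD mice 6 of 16 were called higher, beside 2834 of all 17441 genes tested. These marker counts are without the GC correction.

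Among the other genes of the pathway, 37 of the 63 tested were called higher and 11 lower in HFD than in LFD adipocytes, beside 26.5% and 25.0% of all genes, with a median log2 fold change of 0.83. Of the 72 symbols listed, 71 were found in the tables. In SW against HFD 9 were called higher and 17 lower (15.6% and 15.9% of all genes), and in SW against LFD 24 higher and none lower (10.9% and 6.18% of all). In SVC 14 of 66 were called lower and none higher in SW than in HFD mice, where 11.7% of all genes were called lower and 5.71% higher. With the GC correction no gene of the SVC table passed, so these 14 calls were lost as well.

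Of the 10 other sensors tested, 8 were called higher in HFD than in LFD adipocytes. Nlrx1, a mitochondrial NLR protein, was called lower (-0.79, adjusted p = 0.00106 by edgeR), and Ifi203 had a log2 difference of 0.18 (adjusted p = 0.372). The NAIP genes, whose proteins bind bacterial flagellin and secretion system proteins for NLRC4, had log2 fold changes of 2.96 (Naip2, adjusted p = 9.64e-06 by edgeR), 2.73 (Naip6, adjusted p = 0.000446) and 1.76 (Naip5, adjusted p = 9.85e-05). These genes are near-identical copies, so counts may be split between them, and Naip1 was too low to test. Naip2 stood at 3.96, 4.38 and 2.24 CPM in LFD, 30.9, 24.3 and 30.0 CPM in HFD and 16.5, 14.3 and 13.3 CPM in SW. Its fall from HFD to SW (-0.95, adjusted p = 0.00799) passed, as did that of Naip6 (-1.04, adjusted p = 0.0435) and of Nlrp1a, another sensor (3.33 in HFD against LFD, then -2.19, adjusted p = 0.0174). Ifi204, a DNA-binding relative of Aim2 and the sensor with the highest mean CPM, rose by 1.03 (adjusted p = 0.00246) and had a log2 difference of 0.24 from HFD to SW (adjusted p = 0.382).

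The cytokines that caspase-1 matures did not pass the test between diets in adipocytes. Il1b stood at 1.11, 2.17 and 0.66 CPM in LFD, 3.68, 1.67 and 1.34 CPM in HFD and 2.73, 5.23 and 4.94 CPM in SW adipocytes, with a log2 difference of 0.60 between HFD and LFD (adjusted p = 0.345 by edgeR) and 1.59 between SW and LFD (adjusted p = 0.0532). Il18 stood at 2.85 to 4.44 CPM in LFD and 3.84 to 4.81 CPM in HFD, a log2 difference of 0.23 (adjusted p = 0.486). Between the fractions Il1b did pass: it was higher in SVC than in adipocytes of HFD mice (3.59, adjusted p = 0.00381), beside 29.1% of all genes called. Its SW against HFD change differed between the fractions (-3.30, SVC minus adipocytes, adjusted p = 0.0252), beside 27.1% of all genes. That change passed in neither fraction alone (-2.47 in SVC, adjusted p = 0.0922, and 1.00 in adipocytes, adjusted p = 0.120). Il33, a related cytokine that is active without caspase-1, was called higher (1.07, adjusted p = 0.0236). Il1rn, the secreted antagonist of the IL-1 receptor, had the largest rise of the 63 genes tested from the list. It stood at 9.67, 3.20 and 1.71 CPM in LFD, at 81.7, 72.7 and 105.5 CPM in HFD and at 51.2, 51.1 and 32.5 CPM in SW, with a log2 fold change of 4.27 in HFD (adjusted p = 6.15e-05) and 3.32 in SW against LFD (adjusted p = 0.000739).

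Of the 10 genes of the activating signal 8 were called higher in HFD than in LFD adipocytes and none lower. Kcnk13, a potassium channel, rose the most (3.00, adjusted p = 1.68e-05 by edgeR). P2rx7, the ATP-gated channel upstream of NLRP3, stood at 10.5, 7.22 and 5.14 CPM in LFD and 46.4, 33.4 and 41.9 CPM in HFD (2.43, adjusted p = 3.17e-05), then fell by 0.72 on the log2 scale in SW (adjusted p = 0.0271). Nek7, the kinase that binds NLRP3, rose by 1.18 (adjusted p = 0.0133) and in SW fell by 1.33 (adjusted p = 0.0157). The 2 that did not pass were Txnip, a thioredoxin-binding protein and the highest of this group, with a log2 difference of -0.40 (adjusted p = 0.127), and the calcium-permeable channel Trpm2 with one of -0.17 (adjusted p = 0.679).

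Of the 10 genes of the priming signal 8 were called higher and 1 lower. Cd14, a co-receptor of lipopolysaccharide that is also on the macrophage list, rose by 2.36 (adjusted p = 6.26e-06 by edgeR), and Rela, a subunit of NF-κB, fell by 0.31 (adjusted p = 0.0367). Among the other caspases and pore genes, Ninj1 (1.19, adjusted p = 0.00126) and Casp8 (0.60, adjusted p = 0.00186) were called higher, while Gsdme had a log2 difference of 0.14 (adjusted p = 0.564). Among the inhibitors 4 of 8 were called higher, with Card19 at 1.05 (adjusted p = 0.0017), and 2 lower, with Cflar at -0.33 (adjusted p = 0.0316). Of the 8 guanylate-binding and interferon-induced genes 5 were called lower, Gbp2 at -0.80 (adjusted p = 0.0257) among them, and 1 higher, the myeloid transcription factor Irf8 at 1.92 (adjusted p = 9.99e-05). Gm12250 (0.020) and Zbp1 (0.19) did not pass. In SW against HFD 6 of these 8 were called higher, with Gbp2 at 1.32 (adjusted p = 0.00807).

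**Figure D5:**
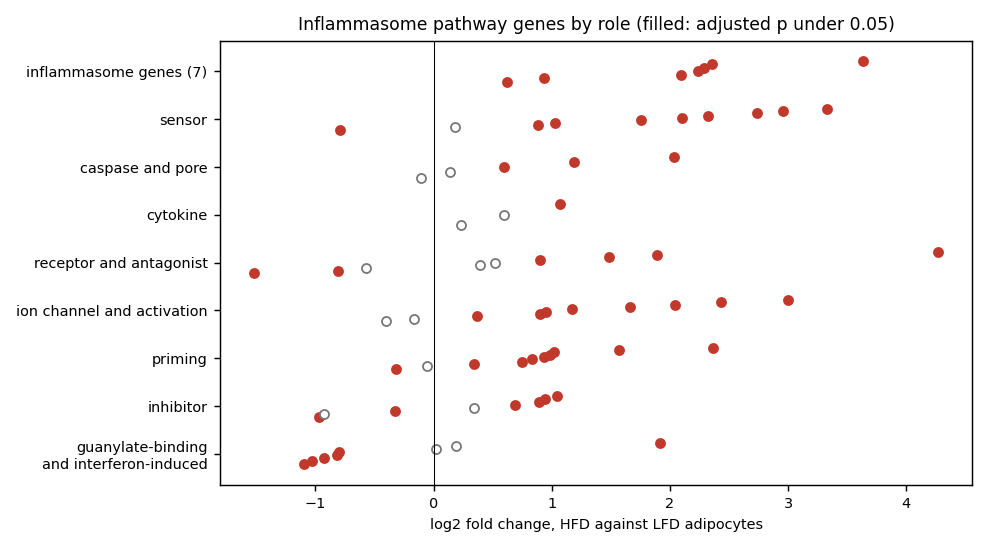
Log2 fold change of each tested gene between HFD and LFD adipocytes, by role, filled where the adjusted p of edgeR's quasi-likelihood test was under 0.05. The 7 inflammasome genes and most sensors, activating and priming genes lie to the right of 0, 2 of 3 cytokines are open points, and 5 of 8 guanylate-binding and interferon-induced genes are filled points to the left of 0.

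Across the 9 adipocyte libraries the log2 CPM of the 7 genes moved together, with Pearson's r between 0.56 (Nlrc4 with Gsdmd) and 0.98 (Pycard with Casp1) over the 21 pairs and a median of 0.92. All points share the diet groups, so these values are a description. The genes most like each of the 7 over the same libraries had r from 0.986 to 0.997. They were Pold3 and Prim1 for Nlrp3, Gas2l3 and Il1rn for Aim2, Crlf3 and Ccnb1 for Nlrc4, Arrb2 and Tuba1c for Pycard, Cd37 and Uap1l1 for Casp1, Ebi3 and Fgd2 for Casp4, and Lst1 and Mnda for Gsdmd.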

How the data were processed

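Poly(A) RNA of adipocytes and SVC was sequenced. The authors aligned reads with Bowtie2 and used RSEM to obtain estimated counts per gene. The deposited values are these estimated counts, whole numbers that were not normalized, in 1 table per fraction. The processing notes also name limma and the build mm9, and no versions. Of 26 sample records, runs of the same library share a label, and whether runs were added up is not given in the sources used here. The sample titles mark runs as paired-end or single. Every adipocyte sample had a paired-end run, and every SW sample of SVC had both kinds. Some HFD and LFD samples of SVC had single runs only. The kind of run thus differs between SVC diets and between fractions, and its part in the results was not tested. Groups came from the labels through the column names, which gave 15 libraries; 3 further columns of the SVC table, whose names give no diet of the labels, were not used.

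From the estimated counts, edgeR 4.0.16 (R 4.3.3, filterByExpr at a minimum of 10 counts, scaling by TMM, robust quasi-likelihood fit, Benjamini-Hochberg adjusted p under 0.05) was fitted to each fraction with all its diet groups, and to all 15 libraries for comparisons between fractions. CPM use TMM factors. The SVC comparison with LFD was not tested, having 1 LFD library. Scripts were tested on simulated data. Alternatives were DESeq2 1.42.0, limma-voom (limma 3.58.1), RLE and upper-quartile factors, other filters, a fit of the compared groups alone and the omission of each library in turn. Corrections for GC content and transcript length were chosen after seeing the data. They used the longest transcript of each gene with an APPRIS principal tag in GENCODE M21 (GRCm38), else the longest protein-coding or else the longest transcript.

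The 7 genes and all lists were chosen with earlier results of these data known. From the pathway list the text names Il1b, Il18, Il1rn, Nek7, Txnip, Gsdme, Casp8, P2rx7 and the Naip genes, and in each role the gene with the highest mean CPM and the called gene with the largest change, except 1 that is not reported here. Nlrx1, Ifi203, Trpm2, Gm12250 and Zbp1 were named after their values were seen. For each of the 7 it names the 2 genes most correlated over the adipocyte libraries. Adgre1, Gsdme and Card19 stand in the tables under older symbols (Emr1, Dfna5 and 1110007C09Rik). Of the other marker lists, adipocyte, neutrophil and macrophage markers are given where they touch a result. Ratios were computed in Python 3.11.15 with numpy 2.4.6 and pandas 2.3.3, and plots drawn with matplotlib 3.10.9.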

Additional observations from a re-analysis of the deposited data

Results flagged for a closer look

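The interaction term of edgeR's quasi-likelihood test over all 15 libraries called 3 of the 7 genes, beside 27.1% of all genes in either direction. These 3 responded to the diet switch differently in SVC and in adipocytes. The log2 change in SVC minus that in adipocytes was -1.90 for Aim2 (adjusted p = 0.00677), -1.69 for Casp1 (adjusted p = 0.00118) and -2.47 for Casp4 (adjusted p = 0.000797). All 3 fell in SVC (-2.53, -1.74 and -2.48) and had log2 differences of -0.49, 0.058 and 0.10 in adipocytes. The summed macrophage markers went from 14427 and 23229 CPM in HFD to between 19610 and 25170 CPM in SW in SVC, and their part in the difference was not tested. With the GC correction Casp4 alone passed, at -1.41.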

How the results depend on the processing

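In adipocytes, all 7 genes were higher in HFD and in SW than in LFD under every alternative in which they were tested, and calls were lost only on leaving out libraries (Gsdmd in HFD against LFD, Nlrc4 in SW against LFD). With at least 10 counts required in every library, Nlrp3 and Nlrc4 were not tested, and 0 of the 7 were called in SW against HFD. That filter left 1 of the 7 called in SVC SW against HFD, 1 in the interaction and 3 in SVC against adipocytes in SW, since it removes genes. For SVC SW against HFD the genes called overall (2849) became 5222 with DESeq2, 1719 with limma-voom and 0 with the GC correction, which left 0 of the 7. The GC correction left 1 of the 7 and 2201 genes in the interaction (3 and 4727 before), and gave 4 of the 7 and 3375 genes in SVC against adipocytes in HFD (2 and 5078 before). Leaving out each library gave 0 to 6 of the 7 and 0 to 6213 genes in SVC SW against HFD, 0 to 1 of the 7 and 1522 to 4554 genes in adipocyte SW against HFD, 2936 to 6622 genes in the interaction, and 2528 to 7044 genes in SVC against adipocytes in HFD.

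Signs turned for differences that had not passed, and for Aim2 in SVC against adipocytes in SW (0.12 with the GC correction). In adipocyte SW against HFD the length correction gave -0.29 (Casp1) and -0.27 (Casp4), and leaving out libraries -0.14 to 0.17 (Casp1), -0.066 to 0.23 (Casp4) and -0.38 to 0.34 (Pycard). In SVC SW against HFD the GC correction gave -0.049 for Gsdmd, and leaving out libraries -0.28 to 1.17 for Pycard. In the interaction upper-quartile factors gave -0.042 for Nlrc4 and the GC correction -0.26 for Gsdmd, and leaving out libraries -0.23 to 0.31 (Nlrc4), -0.45 to 1.12 (Pycard), -0.18 to 0.65 (Gsdmd) and -1.44 to 0.14 (Nlrp3). In SVC against adipocytes in HFD, Casp1 was 0.091 with upper-quartile factors, 0.020 with the strict filter and 0.47 with the GC correction, and leaving out libraries gave -0.045 to 0.022 (Casp1), -0.049 to 0.42 (Casp4) and -0.096 to 0.24 (Nlrc4). For Nlrc4 in SVC against adipocytes in SW it gave -0.11 to 0.40. The cause of these shifts was not tested.

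The median over the 7 genes of the log2 difference per macrophage marker was -1.12 in HFD against LFD (-0.88 with the markers' geometric mean), -1.01 in SW against LFD (-0.66 with that mean) and 0.46 in SW against HFD (0.82 with 5 markers, and 0.23 to 0.52 on leaving out libraries). No paired analysis was possible because the columns carry none of the labels' replicate numbers. Low counts of the sensors in LFD libraries limit the precision of their folds.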

Other observations

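Further cell type markers moved with diet in the adipocyte fraction. Fibroblast and progenitor markers summed to between 1565 and 2388 CPM in LFD and between 5012 and 6924 CPM in HFD libraries. Of these markers 3 of 6 were called higher by edgeR, beside 26.5% of all genes. Mesothelial markers had 4 of 6, endothelial markers 3 of 5 and red blood cell markers 5 of 5 called lower in HFD than in LFD. Over all genes 25.0% were called lower in that comparison. T cell (5 tested) and B cell markers (4 tested) had none called in either direction, and dendritic cell markers had 1 of 6 called lower.

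In the SVC, neutrophil markers summed to 784 CPM in the single LFD library, where the HFD libraries had 20.5 and 72.2 CPM and the SW libraries 105 to 181 CPM.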
